A study of Mus musculus with 2 samples.

Results

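Sites assigned to 6 classical cadherin genes and 1 protocadherin gene were examined in the KLF6 binding maps of a mouse hepatocellular carcinoma (HCC) cell line. The genes were Cdh2, Cdh5, Cdh9, Cdh10, Cdh18, Cdh19 and Pcdh10. A site belonged to a gene when the list gave that gene's symbol or, where no symbol was given, its description. This gave 9 sites out of the 1643 in the 2 lists, 7 of 742 in experiment 1 and 2 of 901 in experiment 2. The genes were chosen by the presence of assigned sites in these same lists, so the number of sites is a description and supports nothing further.

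KLF6 is a zinc finger transcription factor, and the sites were mapped by chromatin immunoprecipitation with sequencing (ChIP-seq). Both samples came from HCC cells transfected with a plasmid for full-length KLF6 fused in frame to a V5 tag. The KLF6 ChIP sample was precipitated with an antibody against V5, and the input sample was DNA isolated without precipitation. Experiment 1 pooled 2 sequencing runs, and both experiments fall under the same pair of samples, with 1 sample per group. What the lists describe is therefore tagged, plasmid-borne KLF6 set against input DNA. Gene expression was not measured, so the labelled cell type could not be checked against its markers.

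Cadherins are calcium-dependent adhesion proteins that bind a like molecule on the neighbouring cell, while their cytoplasmic tails hold catenins that connect to actin. Type I members, such as the N-cadherin gene Cdh2, form strong junctions, and type II members are often expressed in selected neurons, vessels or mesenchyme. Protocadherins share the extracellular cadherin repeats but lack the tail that binds catenins. In liver, epithelial cells rely on E-cadherin and N-cadherin, and the endothelium on VE-cadherin.

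Of the 9 sites, 8 lay over 100 kb from the start of the gene, and none was found in both experiments. Over all sites, 36.5% of experiment 1 and 30.6% of experiment 2 lay that far. Of all sites, 14.7% and 12.4% overlapped a site of the other experiment. The best rank by score of the 9 sites was 312 of 742 in experiment 1 and 603 of 901 in experiment 2. Positions below are those of the authors' deposited lists, which use the mouse build mm9 per the submitters' processing notes. Fold enrichment is the authors' caller value, taken here as ChIP over the expected background. The score is the −log10 p-value of a site multiplied by 10, and tags are the reads counted at a site. The false discovery rate (FDR) is a percent, and it stood at its highest value of 100% at all 9 sites. In experiment 1 an FDR below 100% was given to 158 of 742 sites (21.3%), and in experiment 2 to 29 of 901 (3.22%).

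The only type I gene of the set was Cdh2 (ENSMUSG00000024304), which encodes N-cadherin. Its site lay in experiment 2 on chromosome 18 from 16885725 to 16886030, inside the gene and 81.9 kb downstream of its start. It held 10 tags, with a fold enrichment of 11.15 and a score of 51.61. This was the only 1 of the 9 sites inside its gene, which spans 220 kb on the minus strand. Summits inside the assigned gene made up 14.4% of experiment 1 and 18.9% of experiment 2. The list named Cdh2 by description only. Exon positions of build mm9 were not used here, so exon and intron were not told apart.

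Cdh5 (ENSMUSG00000031871) encodes VE-cadherin, the adhesion protein of endothelial junctions. Its site lay in experiment 1 on chromosome 8 from 106443552 to 106444180, 182 kb upstream of the gene. There were 20 tags, the fold enrichment was 6.66 and the score was 59.48. The site had the most tags among the 7 sites of experiment 1, and it ranked 401 of 742 by tags in that list. No site of experiment 2 lay closer to it than 4.71 Mb.

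Cdh9 and Cdh10 are neighbours on chromosome 15, and both encode type II cadherins known mainly from neurons. The site of Cdh9 (ENSMUSG00000025370) lay in experiment 1 from 16436626 to 16437204, 271 kb upstream of the gene. It held 18 tags at a fold enrichment of 6.66 and a score of 53.44. The site of Cdh10 (ENSMUSG00000022321) lay in experiment 1 from 18334122 to 18334631, 416 kb upstream of its own gene and 1.55 Mb past the end of Cdh9. It also held 18 tags, with a fold enrichment of 5.38 and a score of 54.57. Thus the 2 sites matched in tags, and the Cdh10 site had the lower fold.

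Cdh18 (ENSMUSG00000040420), a further type II gene of chromosome 15 known from the nervous system, had its site in experiment 2. The site ran from 22344092 to 22344383, 622 kb upstream of a gene body of 410 kb. It held 10 tags at a fold enrichment of 9.56 and a score of 53.49. Of the 901 sites of that list, 17 lay farther from the start of their gene.

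Cdh19 (ENSMUSG00000047216), a type II gene known from cells of the neural crest and Schwann cell lineage, had a site on chromosome 1 from 112397186 to 112397608 in experiment 1. This was the only 1 of the 9 downstream of its gene, 477 kb from the start and 388 kb beyond the other end. With 15 tags it had the fewest among the 7 sites of experiment 1. Its fold enrichment was 6.29 and its score was 50.5, against a lowest score of 50.02 anywhere in that list.

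Pcdh10 (ENSMUSG00000049100) encodes a protocadherin of the delta group and was the only gene of the set with more than 1 site. All 3 lay in experiment 1, upstream of a gene body of 14.8 kb on chromosome 3. The farthest, from 44044480 to 44044924, lay 1.14 Mb away and held 16 tags at 7.33-fold with a score of 57.0. The middle site, from 44221085 to 44221532, lay 961 kb away and held 17 tags at 4.82-fold with a score of 50.1. The nearest, from 44946253 to 44946787, lay 236 kb away and held 19 tags at 7.69-fold with a score of 61.76. Their summits were 177 kb and 725 kb apart, while each was 444 to 534 bp wide. The nearest and the farthest were the only member sites of experiment 1 above the list's median fold. Of the 653 genes with a site in experiment 1, 13 had 3 or more (1.99%).

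**Figure D1:**
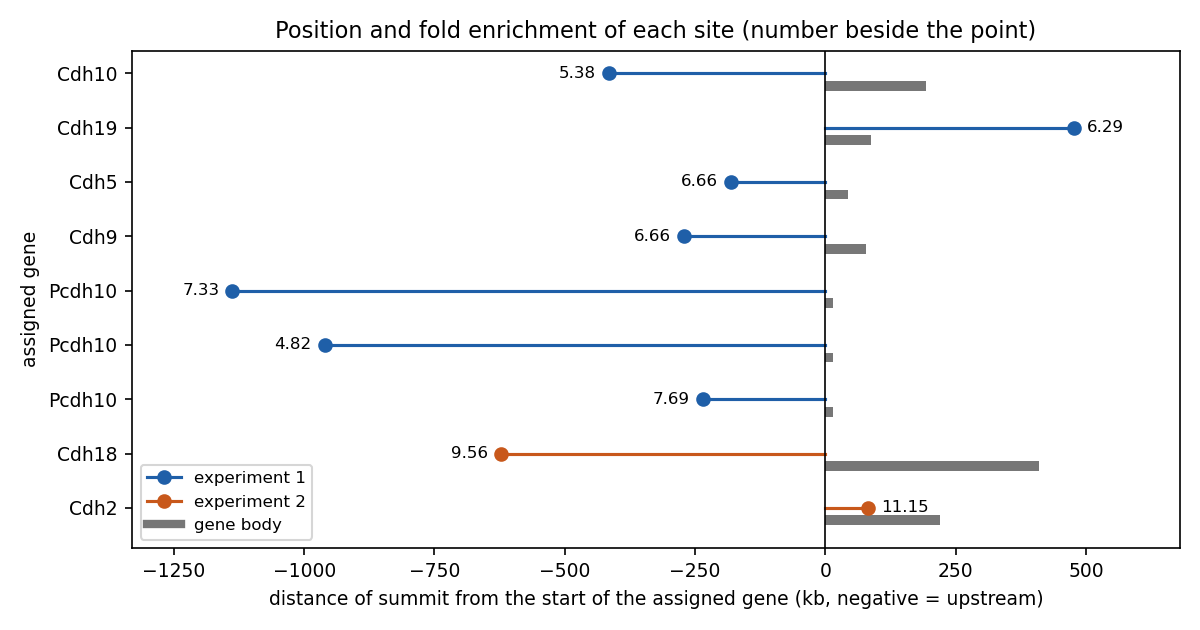
Signed distance in kb from the start of the assigned gene to the summit of each of the 9 sites, with the fold enrichment as a number beside each point, experiment 1 in blue, experiment 2 in orange and the gene body as a grey bar. Of the 9 points 7 lie upstream, Cdh19 lies past its gene body and Cdh2 lies within it.

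Most of these sites lay farther from their gene than most sites of the same list. A distance of over 100 kb from the gene start was found at 7 of 7 member sites in experiment 1, beside 271 of all 742 sites (36.5%). In experiment 2 it was found at 1 of 2, beside 276 of 901 (30.6%). The 7 sites of experiment 1 had a median distance of 415806 bp, and the whole list had 53633 bp. These 7 sites came from 5 genes, and those of Pcdh10 share a gene and are not independent examples. Even the closest of the 7, at Cdh5, fell at the 75.2nd percentile of the list, and 1 site of the list lay farther out than the farthest site of Pcdh10. At Cdh2, the 81.9 kb fell at the 63.7th percentile of experiment 2. The lists assign a site to the gene with the nearest start, however far away it is. The part that the size of the intergenic regions has in these distances was not tested.

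**Figure D2:**
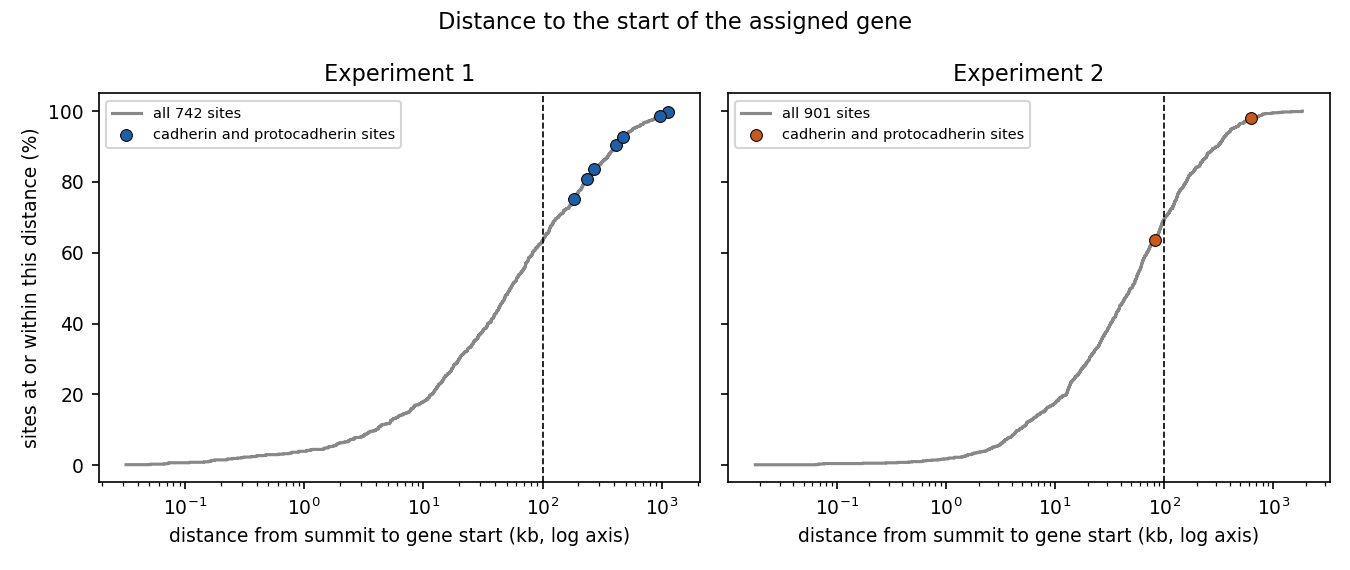
Cumulative share of sites, in percent, by distance from summit to gene start in kb on a log axis, with all sites of each list as a grey line, the cadherin and protocadherin sites as points on it and 100 kb as a dashed line. The 7 points of experiment 1 lie right of the dashed line, and in experiment 2 Cdh2 lies left of it and Cdh18 right of it.

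The side on which a site lay was also described. Sites upstream of their gene numbered 6 of 7 in experiment 1 (48.7% of all its sites) and 1 of 2 in experiment 2 (46.3%). The 3 sites of Pcdh10 share a gene and are not independent examples of this. By the order of protein-coding genes in RefSeq (GRCm38.p6), the next gene on the side of the site was another type II cadherin for 4 of the 5 type II members. These next genes were Cdh11 for Cdh5, Cdh6 for Cdh9, Cdh9 for Cdh10 and Cdh7 for Cdh19. For Cdh18 it was Acot10, which encodes an acyl-CoA thioesterase, and for Pcdh10 it was D3Ertd751e. Cdh9 lies between Cdh6 and Cdh10, and Cdh10 between Cdh9 and Cdh12, all of them type II genes. At these 2 genes either side would therefore have given a type II cadherin. The share of such pairs of neighbours among other genes was not computed, so the 4 of 5 cannot be read as a pattern. The order comes from a later assembly than the lists.

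By fold, 6 of the 9 sites stood below the median of their list. In experiment 1 their fold enrichment ran from 4.82 to 7.69 with a median of 6.66, and the whole list had a median of 7.17. Of the 7 sites, 5 lay below that median (46.2% of the list did). In experiment 2 the fold was 9.56 at Cdh18 and 11.15 at Cdh2, on either side of a list median of 10.04 (49.7% of sites lay below it). By score, the best placed was the nearest site of Pcdh10, at rank 312 of 742, and the lowest was the middle site of Pcdh10, at rank 729. Cdh18 and Cdh2 ranked 603 and 744 of 901.

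The cadherin sites were set beside other sites far from genes, and their folds lay mostly in the same range. The 264 other sites of experiment 1 over 100 kb from a gene start had a median fold of 6.66, with quartiles of 5.93 and 7.99. The members' median was the same, and 5 of the 7 lay between those quartiles. In experiment 2 the 275 such sites had a median fold of 10.4 and quartiles of 9.03 and 11.2, and the Cdh18 site, at 9.56, lay within them. The Cdh2 site, inside its gene at 81.9 kb, is not a far site, and its fold of 11.15 is given only beside them. The tags of the far sites had medians of 19 in experiment 1 and 11 in experiment 2, beside 15 to 20 at the 7 members of experiment 1 and 10 at Cdh18. No test was made, since a site is not a replicate and the set is small.

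**Figure D3:**
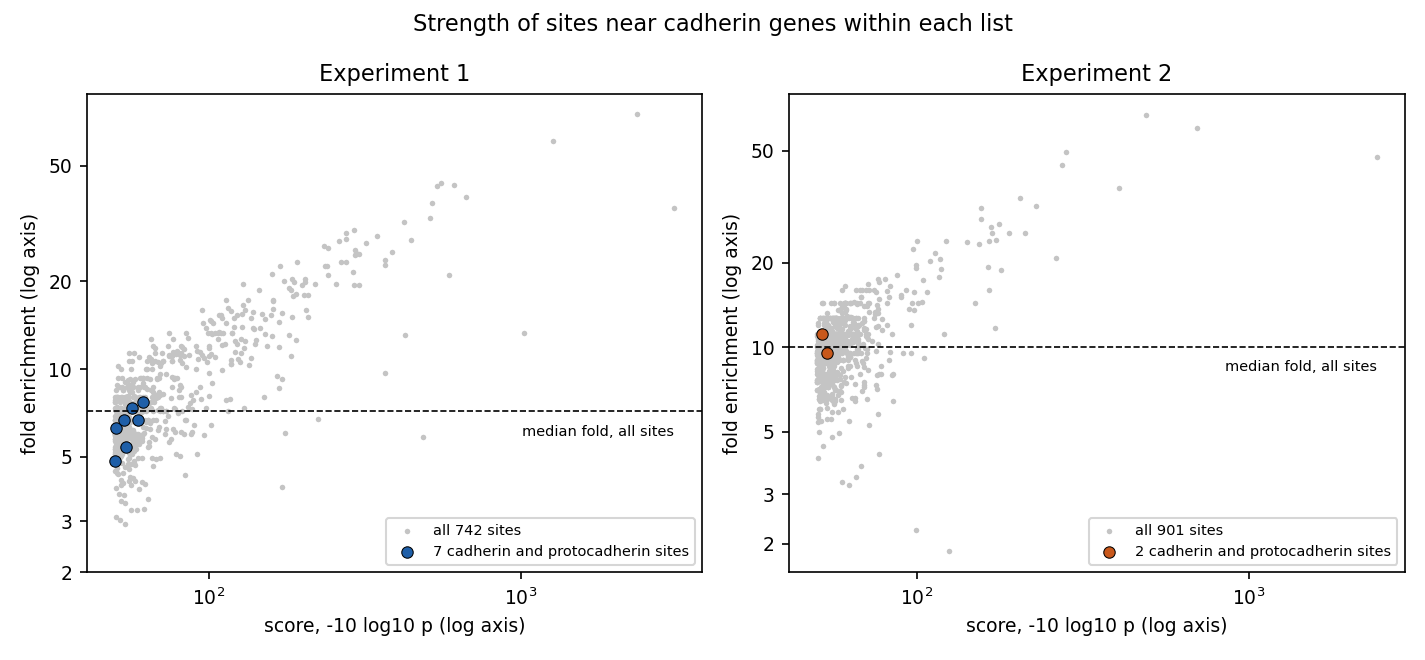
Fold enrichment against score, both on log axes, for each site of experiment 1 (left) and experiment 2 (right), with all sites in grey, the cadherin and protocadherin sites in colour and the median fold of the list as a dashed line. The coloured points sit at the low end of the score, from 50.1 to 61.76, with folds on both sides of the dashed line.

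Several of these folds were shared with many other sites. The value 6.66, held by Cdh5 and Cdh9, was the most frequent of experiment 1 and stood at 43 of its 742 sites (5.8%). The value 11.15 of Cdh2 was the most frequent of experiment 2, at 89 of 901 sites (9.88%). The value 9.56 of Cdh18 came second there, at 60 sites (6.66%). With so many sites at the same value, equal folds at 2 genes do not show equal binding. Without read totals, no limit of detection can be set.

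The experiments were then compared at these genes. Of the 7 sites of experiment 1, 0 overlapped a site of experiment 2 by at least 1 bp, while 109 of all 742 did (14.7%). Of the 2 sites of experiment 2, 0 overlapped one of experiment 1 (112 of 901, 12.4%). No member gene had sites in both lists, wherever these lay. Among the 1330 genes with a site in either list, 166 had sites in both (12.5%). Over only 9 sites and 7 genes, counts of 0 beside such shares do not tell these sites from the rest.

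Sites of the other experiment were present in the wider surroundings of some members. Within 1 Mb of the gene body, whatever gene a site was assigned to, Cdh9 had 1 site of experiment 1 and 2 of experiment 2. Cdh10 had 1 of each, and Pcdh10 had 2 of experiment 1 and 1 of experiment 2. Cdh5 and Cdh19 had 1 site of experiment 1 and 0 of experiment 2, Cdh18 had 0 and 1, and Cdh2 had 0 and 2. The median over all 1330 genes was 1 site in each list, and 32.6% of them had 0 in experiment 1 and 19.3% had 0 in experiment 2. The closest approach between the lists was 232 kb, from the Cdh10 site to a site of experiment 2 with a fold of 12.74, assigned to ENSMUSG00000080596.

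The chromosome 15 stretch from Cdh6 to Cdh18 (12963955 to 23376169), picked after its sites were seen, holds 3 of the 7 genes over 10.4 Mb. RefSeq places Cdh12, a type II cadherin gene without an assigned site, between Cdh10 and Cdh18. Experiment 1 had 4 sites in the stretch and experiment 2 had 8, and 0 of them were shared. Over the whole lists, 14.7% and 12.4% of sites were shared. Per Mb the stretch held 0.384 and 0.768 sites, beside 0.313 and 0.405 over the rest of the chromosome as covered by the lists. The stretch was chosen with these same sites in view, so the difference in density supports nothing further. Folds ran from 4.12 to 6.66 in experiment 1 and from 7.42 to 12.7 in experiment 2. Of the 12 sites, 5 were assigned to cadherins, which were those of Cdh9, Cdh10 and Cdh18 and 2 sites of Cdh6. The others went to 2 Ensembl genes without a name in the lists and to Acot10. How a site in this stretch is counted thus hangs on which start is nearest.

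**Figure D4:**
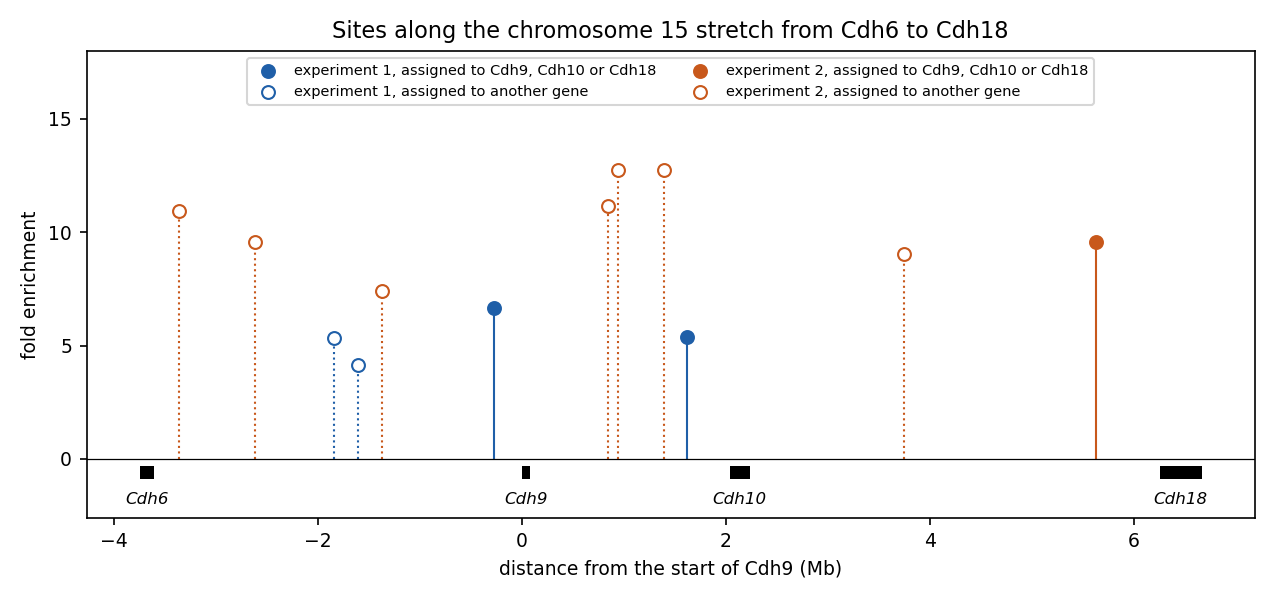
Fold enrichment of each site, by distance in Mb from the start of Cdh9, along chromosome 15 from Cdh6 to Cdh18, with experiment 1 in blue, experiment 2 in orange, filled points for sites of Cdh9, Cdh10 or Cdh18 and open points for sites assigned to other genes, and gene bodies as black bars. The sites of the experiments lie in the same stretch but at no common position. Over the whole lists, 14.7% of sites of experiment 1 and 12.4% of experiment 2 were shared.

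The rest of the cadherin family and its partners were counted from lists of genes. Of 76 distinct genes, 9 had a site in experiment 1 and 5 in experiment 2, which made 13 in either. Of the 21900 protein-coding genes of the RefSeq table, matched by current symbol, 228 had a named site in experiment 1 (1.04%), 316 in experiment 2 (1.44%) and 489 in either (2.23%). The 13 include the 7 members, which were chosen for carrying sites, so their number cannot be read against these shares. Of the other 69 listed genes, 6 had a site. The RefSeq share rests on symbols, while listed genes were also matched by description where the symbol was missing. By symbol alone, 11 of the 76 listed genes had a site. The lists of family genes were also drawn up with earlier results known, and gene length and intergenic size were not corrected for. Type I cadherins had 1 of 5 (Cdh2), type II cadherins 6 of 13, and non-clustered protocadherins 3 of 11. Cdh2, 5 of the 6 type II genes and Pcdh10 are members, so these class counts follow in large part from the choice of genes. The desmosomal cadherins of strong epithelial junctions had 0 of 9, and other cadherin-repeat genes had 1 of 23. Among 15 catenins and related partners 2 had a site. Cdh1, which encodes E-cadherin, had none by symbol. Sites with neither symbol nor description numbered 207 in experiment 1 and 228 in experiment 2, so these are lower limits.

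Outside the 7 genes, Cdh6, a type II cadherin first known from kidney, had 2 sites in experiment 2. They lay 243 kb upstream at 10.95-fold (chromosome 15, 13346235 to 13346492) and 992 kb upstream at 9.56-fold (14095014 to 14095260). Pcdh17, a protocadherin of the delta group, had 2 sites in experiment 1 on chromosome 14, 555 kb and 1.08 Mb upstream, at 6.15-fold and 6.82-fold. Fat3, a giant atypical cadherin, had a site inside the gene at 7.67-fold in experiment 2. The FDR was 100% at each of these 5 sites, as at the 9 members' sites.

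Pcdh20 was the only gene of the 76 with a site in both lists. Its site in experiment 1 lay 147 kb from the start, downstream, at 15.32-fold with an FDR of 56.59%. In experiment 2 a site lay 8.59 kb upstream at 11.15-fold with an FDR of 100%. Their summits were 155 kb apart, so the sites assigned to this gene lay at different positions.

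The 2 catenin genes with a site had them closer to the gene start than any of the 9 above. Ctnna3, for the alpha-catenin of heart and testis, had a site 603 bp upstream of its start in experiment 1, with 42 tags, a score of 265.52 and an FDR of 3.03%. An FDR of 5% or lower was given to 8.22% of that list and to 0.0% of experiment 2. Ctnna2, for the neuronal alpha-catenin, had a site 74.5 kb upstream with 21 tags at 4.61-fold and an FDR of 100%. Ctnna3 was thus the only 1 of the 13 genes with a site within 1 kb of its start. The share of all sites that near was not computed, so this count does not set Ctnna3 apart. Neither catenin site was found in experiment 2, where 14.7% of all sites of experiment 1 had an overlapping site.

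The pattern of Pcdh10, 3 sites in experiment 1 and 0 in experiment 2, was matched by 2 other genes with symbols. They were Lrrtm4, whose highest fold of 7.99 differed from that of Pcdh10 by 0.0552 on the log2 scale, and Zbbx, with 6.66 and a difference of 0.207. The sites of Lrrtm4 lay 191 to 362 kb from its start, and those of Zbbx 136 to 527 kb. None of these sites was shared between the experiments, beside 14.7% of all sites of experiment 1, so this does not set them apart.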

How the data were processed

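The authors deposited 2 annotated site lists, each of KLF6 ChIP against input: experiment 1 (2 runs pooled) and experiment 2. Sites were thus called per experiment. Per the submitters' processing notes, MACS 1.3.6 and build mm9 were used, with no step named. The aligner, the parameters and the depth were not given in the sources used here. Per the file headers, the deposited values are a tag count per site (library not stated), a score of 10 times the −log10 p-value, a fold enrichment (ratio) and an FDR in percent. Distances and assigned genes are also the authors'.

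Sites were assigned to genes by symbol, or by description where it was missing. Overlap, ranks, counts and windows were computed with Python 3.11.15 and pandas 2.3.3, and the overlap step was tested on simulated data. Members and gene lists were chosen with earlier results of these data known. Genes named were the 7 members, listed genes with a site, at most 5 genes matching the member with most sites, and neighbouring sites. All 7 symbols matched the RefSeq table (GRCm38.p6), which was used for names and gene order only. Each group had 1 sample and the lists hold no library's own values, so no test was made.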

Additional observations from a re-analysis of the deposited data

How the results depend on the processing

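No paired analysis was possible because there was 1 sample per group and the results come from no test. Of 33 alternatives, 31 were planned and 2, the 1 Mb windows and the set without Pcdh10, were chosen after seeing the data. In all, 21 left the count within 1.5 times, or the median fold within 1 SD of the members' folds, and 12 moved it. Some of the 21 were counts of 0, which a smaller set of sites or a stricter overlap rule could not raise. The tally is therefore not a measure of how stable the results are. In the higher-scoring 50% of sites, 2 member sites were left, of which 2 lay over 100 kb from the gene start and 0 inside the gene, and 6 genes of the family lists had a site. With an FDR below 100%, 0 sites were left, so 0 inside a gene and 0 over 100 kb, and no median fold could be given. By symbol alone, Cdh2 dropped out and 0 sites lay inside a gene. Leaving out each experiment in turn gave 2 to 7 member sites, 0 to 1 inside the gene, 1 to 7 over 100 kb and 5 to 9 family genes, since each gene's sites came from 1 list except those of Pcdh20. The median fold is a value of each list, so leaving out the other list does not bear on it. No member site was shared under any overlap rule tried, including 50% of each site in common and summits within 1 kb. The 50% rule is stricter than the 1 bp rule, and the closest site of the other list lay 232 kb from a member site. Neither rule could therefore have given a shared site, so they add no support. Depth is unknown, so absence from a list was not tested.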
